A study of Mus musculus with 6 samples.

Results

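The IFIT and IFITM genes of the mouse, which encode antiviral effector proteins, were followed in N18-Fms prostate cancer cells after stimulation with CSF-1. They were chosen by name: every probe whose gene name in the array files was Ifit1, Ifit2, Ifit3, Ifitm1, Ifitm2, Ifitm3, Ifitm5, Ifitm6 or Ifitm7 was taken, whatever its signal, which gave 9 of 36163 genes named in the files, 3 IFIT and 6 IFITM genes, on 10 probe designs. A gene was tested where some group had both of its arrays well above background, which held for 8 of the 9 and for 24648 genes in all. Ifitm5 was not tested.

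The N18 line is 1 luciferase-expressing, neomycin-resistant subclone of TRAMP C2H, a clonal epithelial line from a prostate tumor of the TRAMP transgenic mouse. N18-Fms cells, N18-CFMS in the labels, are N18 cells transduced by retrovirus with murine c-fms, the gene of the CSF-1 receptor, and sorted for the receptor. All 3 groups were N18-Fms cells grown in DMEM with fetal bovine serum and dihydrotestosterone, and no group lacked the transgene. Each group had 2 arrays, with RNA from separate experiments per the methods. Control cells were left unstimulated, and the other groups received recombinant mouse CSF-1 at 100 ng/mL for 24 h or for 48 h, the times of the labels used here, whereas the methods give shorter times. The arrays read RNA pooled over all cells of a culture, so that a change in the share of cells that express a gene and a change per cell cannot be told apart.

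IFIT proteins are cytoplasmic proteins built of tetratricopeptide repeats that bind viral RNA or the initiation factor eIF3 and so restrain translation of viral messages. IFITM proteins sit in the membranes of the cell surface and of endosomes, where they hinder fusion of viral envelopes. Most of these genes are classical targets of type I interferon, whose receptor acts through the kinases JAK1 and TYK2 on ISGF3, a complex with STAT2 and IRF9 that binds the interferon-stimulated response element (ISRE) near the start of the genes. Interferon gamma acts through the GAS element. CSF-1R is a receptor tyrosine kinase of the macrophage lineage that is not itself an interferon receptor.

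The letters of these elements were searched on both strands of the RefSeq promoter windows of GRCm38.p6, which run from 250 bases before to 50 bases after each annotated start. The ISRE core was spelled GAAANNGAAA and stood in 3.44% of 32851 windows, with more than 1 match in 0.225%, and the GAS element was spelled TTCNNNGAA and stood in 8.30%. Windows were found for all 9 genes. The stretches with ISRE cores are shown for those of the 9 genes that held them, 5′ to 3′ on the strand of the gene, with each core in capitals. Ifit3b, a close relative of Ifit3, is shown because its stretch is the same as that of Ifit3 at 64 of 64 bases. Another relative, Ifit1bl1, held 1 core in each of its windows, beginning at bases -23 and -104, and is not shown. The Ifitm3 stretch starts at the annotated start of the transcript.
Ifit1: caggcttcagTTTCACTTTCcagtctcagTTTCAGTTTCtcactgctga
Ifit3: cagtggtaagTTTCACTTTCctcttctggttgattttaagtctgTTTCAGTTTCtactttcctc
Ifit3b: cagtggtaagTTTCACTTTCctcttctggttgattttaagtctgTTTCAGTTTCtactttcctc
Ifitm3: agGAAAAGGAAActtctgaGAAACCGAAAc
Ifitm2: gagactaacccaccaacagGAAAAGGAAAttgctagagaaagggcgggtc

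The Ifit1 stretch lies at chr19:34640775-34640823 on the plus strand, with its cores beginning at bases -104 and -85 relative to the start. The Ifit3 stretch lies at chr19:34583363-34583426 and the Ifit3b stretch at chr19:34607759-34607822, both on the plus strand, and the cores of Ifit3 began at bases -156 and -122. The Ifitm3 stretch lies at chr7:141010715-141010744 on the minus strand, and a GAS match in the same window, from base 14 to base 22 of the transcript, overlaps its second core. The Ifitm2 stretch lies at chr7:140955977-140956026 on the minus strand with 1 core. Neither of the 2 windows of Ifit2 held the ISRE core, although 1 of them held a GAS match that began at base -241. The Ifitm6 window held 0 ISRE cores and 1 GAS match, and the windows of Ifitm1, Ifitm5 and Ifitm7 held neither. These matches describe letters in the windows only.

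A value is the log2 of the probe's background-subtracted signal minus that of the 75th percentile of the array, so that 0 is the level of that percentile. On each array 59305 spots other than controls were read, of which between 58.7% and 72.0% were well above background and 0 were saturated. The Csf1r transcript, also made from the transgene, was well above background on all 6 arrays by 3 probes, whose values ranged from 2.95 to 5.34. The 8 prostate epithelium markers had a summed linear level, in units of the 75th percentile, between 1.8 and 2.62. The arrays at 48 h, at 2.59 and 2.62, lay above the others. Of the 5 tested, Krt18, not well above background in Control, was called higher at 24 h, at least 1.86-fold, with an adjusted p of limma of 0.0522. Krt8 was called higher at 48 h, by 1.98 ± 0.248 (SE) with an adjusted p of limma of 0.0106. Cdh1 was not well above background on any array. For 8 macrophage markers the sum fell between 24.7 and 44.5, with the Control arrays, at 44.5 and 39.9, above the stimulated arrays, of which the highest was at 37.7, and most of it came from Itgam. Without Itgam the order turned, with 2.30 and 2.48 in Control, 4.36 and 4.04 at 24 h, and 3.71 and 3.59 at 48 h, most of it from Cd14. Cd14 was higher by adjusted p of limma, by 0.87 ± 0.108 (SE) at 24 h with 0.0101 and by 0.69 ± 0.108 at 48 h with 0.0191. The tested markers did not all move together. At 24 h Itgam differed from Control by -0.43 ± 0.224. Cd68, Ptprc and Emr1 differed at 24 h by 0.57 ± 0.166, 0.68 ± 0.204 and 0.19 ± 0.165, in the direction of Cd14. At 48 h Itgam differed from Control by -0.65 ± 0.224 and Cd68 by -0.51 ± 0.166, but Ptprc by 0.15 ± 0.204 and Emr1 by 0.18 ± 0.165. Lyz2 was not well above background on any array. The part of these marker shifts in the results was not tested. Array 1 of the 24 h group was alone on its slide, and without it 5 members were called at 24 h, as with it.

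**Figure D1:**
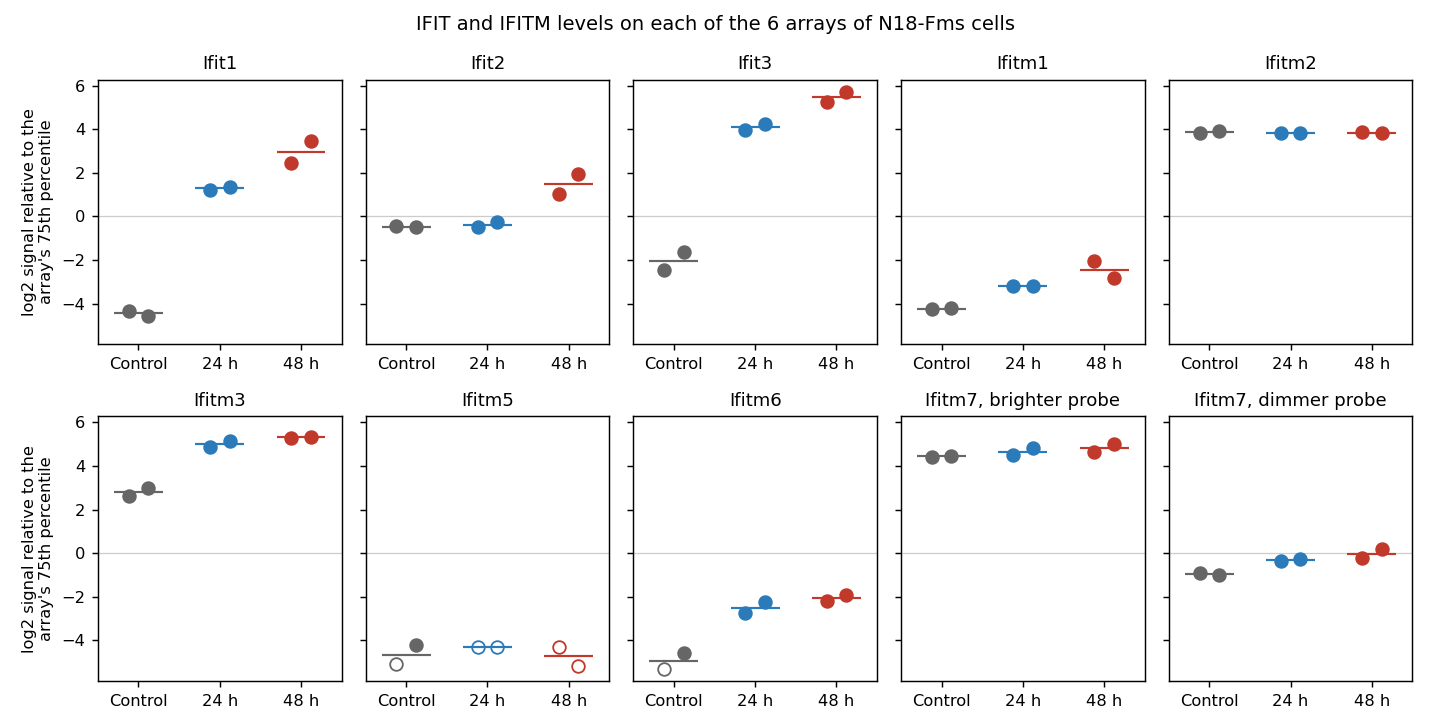
Levels of the 9 genes on each array, as log2 signal relative to the array's 75th percentile (y axis), for Control cells and both times of stimulation (x axis), with a dot per array and a line at the mean of 2 arrays; open dots were not well above background. Ifit1 rose from -4.33 and -4.56 in Control to 2.45 and 3.45 at 48 h, whereas Ifitm2 stayed between 3.82 and 3.94 on all 6 arrays.

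A gene was called higher or lower at an unadjusted p-value of limma under 0.05 together with a change of at least 2-fold, the thresholds of the study, and the Benjamini-Hochberg adjusted p over all genes tested is given beside it. At 24 h, 5 of the 8 genes tested were called higher than in Control and 0 lower, against 5.86% of all genes called higher. By adjusted p alone 4 of 8 were higher, against 8.02% of all genes. At 48 h, 6 of 8 were called higher and 0 lower, against 4.66% of all genes, and the same number passed by adjusted p, against 6.58%. The median log2 difference from Control was 1.62 at 24 h and 2.22 at 48 h over these genes, and 0.04 and -0.04 over all genes tested. Both comparisons share the Control arrays.

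The share of higher calls among all genes depended on scaling. At 24 h, 1444 genes were called higher and 450 lower, which became 924 and 1019 with median centring and 937 and 616 with quantile normalization. At 48 h, 1148 higher and 450 lower became 1024 and 648 with median centring, which moved the median of all genes to -0.25 at 24 h and -0.14 at 48 h. The members called kept their direction under each scaling.

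**Figure D2:**
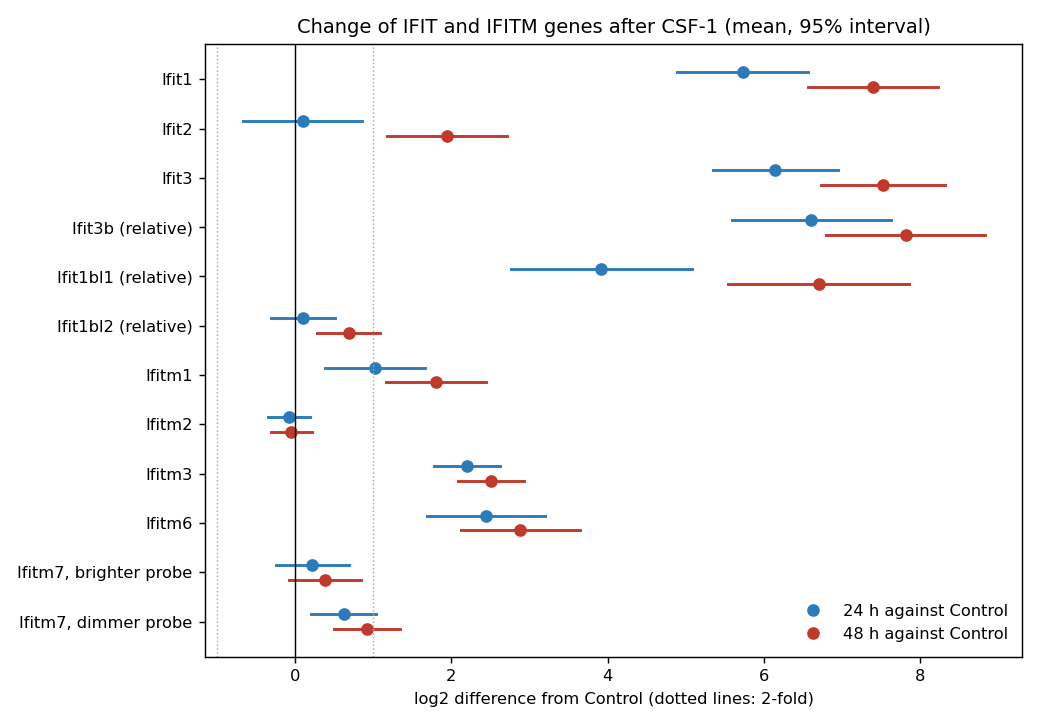
Log2 difference from Control (x axis) of the tested IFIT and IFITM genes and of 3 relatives (y axis), at 24 h in blue and 48 h in red; dots are means of 2 arrays against 2, bars are 95% intervals of limma, and dotted lines mark 2-fold. Ifit1 and Ifit3 lie beyond 5 at both times, Ifit2 lies at 0.10 and then 1.94, and Ifitm2 lies at -0.07 and -0.05.

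Among the IFIT genes, Ifit1 and Ifit3 rose steeply by 24 h and Ifit2 was called only at 48 h. Ifit1 encodes the family member that binds viral RNA ends lacking the host cap methylation. It was read by probe A_51_P327751 at chr19:34723796-34723855 (mm9). Its values were -4.33 and -4.56 in Control, 1.22 and 1.35 at 24 h, and 2.45 and 3.45 at 48 h. The groups did not overlap, and the Control values lay close to the dimmest signals called well above background, which ranged from -5.08 to -4.26 over the arrays. Ifit1 was 5.73 ± 0.332 (SE, n = 2 arrays per group) higher on the log2 scale at 24 h, or 53.0-fold, with an adjusted p of limma of 0.00181. At 48 h it was 7.39 ± 0.332 higher, or 168-fold, with an adjusted p of limma of 0.00102. Its size depended on the background correction: with normexp the log2 differences were 3.99 and 5.62, and with normexp and quantile normalization 3.92 and 5.55.

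Ifit3, whose human counterpart binds the human IFIT1 and IFIT2 proteins in complexes, was also higher at both times. Probe A_51_P359570, at chr19:34663105-34663164 (mm9), gave -2.44 and -1.64 in Control, 3.97 and 4.23 at 24 h, and 5.23 and 5.72 at 48 h. All 4 stimulated arrays stood above both Control arrays. The log2 difference from Control was 6.14 ± 0.315 (SE) at 24 h, or 70.7-fold, and 7.52 ± 0.315 at 48 h, or 183-fold, with adjusted p of limma of 0.00145 and 0.000927.

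Ifit2, whose human counterpart joins the same complexes, did not follow Ifit1 and Ifit3 at 24 h. Probe A_51_P161021, at chr19:34650244-34650303 (mm9), read -0.45 and -0.49 in Control, -0.48 and -0.27 at 24 h, and 1.01 and 1.93 at 48 h. The Control and 24 h values overlapped, and both 48 h values lay above them. At 24 h the log2 difference was 0.10 ± 0.304 (SE), with a 95% interval from -0.67 to 0.86 and an adjusted p of limma of 0.874. At 48 h it was 1.94 ± 0.304, or 3.84-fold, with an adjusted p of limma of 0.0191. The interval of Ifit2 at 24 h did not reach the lower bounds of Ifit1 and Ifit3, which were 4.89 and 5.35; the difference between the genes was not tested.

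Between 24 h and 48 h, 3 of 8 genes were called higher, the 3 IFIT genes, and 0 lower, against 0.868% of all genes called higher. By adjusted p none passed, nor did any of the 24648 genes in either direction, which leaves 0% of all genes called higher by that rule. With normexp background correction all 3 IFIT genes passed, at adjusted p of limma from 0.0278 to 0.0403. With normexp and quantile normalization they passed at adjusted p of limma from 0.0222 to 0.0261. The shares of all genes that passed with these corrections were not counted. Ifit2 differed by 1.84 ± 0.304 on the log2 scale with an adjusted p of limma of 0.138, Ifit1 by 1.67 ± 0.332 with 0.16, and Ifit3 by 1.37 ± 0.315 with 0.189. Ifitm1 was not called, at 0.78 ± 0.255, under 2-fold, with an adjusted p of limma of 0.288. In each IFIT gene the 2 arrays at 48 h stood above the 2 at 24 h. The same order held for Ifitm1, Ifitm3, Ifitm6 and the flat Ifitm2, the last at a difference of 0.03. It thus does not set the IFIT genes apart, and its share among all genes was not counted.

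The IFIT locus also holds relatives that the array files list under older names, of which 3 were measured. Ifit3b, I830012O16Rik in the files, gave -3.99 and -2.88 in Control, 3.02 and 3.32 at 24 h, and 4.09 and 4.66 at 48 h. Its log2 difference was 6.60 ± 0.405 (SE) at 24 h and 7.81 ± 0.405 at 48 h, with adjusted p of limma of 0.00208 and 0.00134, which were sizes close to those of Ifit3. A second probe of Ifit3b was not well above background in Control, and its signal was at least 12.8-fold higher at 24 h and at least 33.6-fold higher at 48 h, the Control level being set to the lowest signal well above background on each array.

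Ifit1bl1, Gm14446 in the files, was likewise not well above background in Control. At 24 h it read -2.49 and -2.70 and at 48 h -0.37 and 0.73, so that the groups did not overlap. It was at least 4.38-fold higher than Control at 24 h and at least 30-fold higher at 48 h, with adjusted p of limma of 0.0089 and 0.0021. Ifit1bl2, 2010002M12Rik in the files, read -0.07 and 0.17 in Control, 0.19 and 0.12 at 24 h, and 0.57 and 0.90 at 48 h. It was not called at either time: the log2 difference was 0.11 ± 0.162 at 24 h and 0.69 ± 0.162 at 48 h, the latter with an adjusted p of limma of 0.0494 but under 2-fold. A window of Ifit1bl2 shares 245 of 300 bases with that of Ifit1, read from the opposite strand, and both ISRE cores printed for Ifit1 lie in it.

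The probes of members and relatives were compared with each other by sequence. They were not compared with the transcripts of the other genes, so cross-reading, as between Ifit3 and Ifit3b, was not tested. The 14 probes of members and relatives, each of 60 bases, formed 91 pairs, and the longest run of bases shared by any pair was 8. Placed side by side without gaps, no pair had more than 28 identical bases.

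Among the IFITM genes, Ifitm3 and Ifitm6 were higher at both times, Ifitm1 was higher at 48 h and near the threshold at 24 h, Ifitm2 did not move by more than its error, and the probes of Ifitm7 differed in size. Ifitm3 encodes the endosomal member known for blocking influenza virus. It was spotted 10 times per array by probe A_51_P128876, at chr7:148195591-148195650 (mm9), and the SD between spots of an array was between 0.0288 and 0.051. Its values were 2.64 and 2.97 in Control, 4.87 and 5.14 at 24 h, and 5.28 and 5.35 at 48 h. The stimulated arrays lay well above the Control arrays. In Control and at 24 h the gap between replicate arrays was wider than the spread of spots within each. At 48 h the spots of arrays 1 and 2 overlapped, from 5.20 to 5.34 and from 5.30 to 5.39. The log2 difference was 2.20 ± 0.167 (SE) at 24 h, or 4.60-fold, and 2.51 ± 0.167 at 48 h, or 5.71-fold, with adjusted p of limma of 0.00324 and 0.00202. From 24 h to 48 h it was 0.31 ± 0.167, with a 95% interval from -0.11 to 0.73 and an adjusted p of limma of 0.479.

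Ifitm6, a mouse member described mainly in myeloid cells, was dim. Probe A_51_P294555, at chr7:148201714-148201773 (mm9), read -5.31 and -4.57 in Control, where only array 2 was well above background, and -2.74, -2.25, -2.20 and -1.92 on the 24 h and 48 h arrays. All 4 stimulated arrays exceeded both Control arrays. The log2 difference from Control was 2.45 ± 0.301 (SE) at 24 h and 2.88 ± 0.301 at 48 h, with adjusted p of limma of 0.00983 and 0.00645. The size rests on a Control level at background: with normexp the differences were 1.07 and 1.28, and with normexp and quantile normalization 0.93, under 2-fold, and 1.2.

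Ifitm1, the member found mainly at the cell surface, was dim as well. Probe A_55_P2146254, at chr7:148155659-148155718 (mm9), gave -4.26 and -4.21 in Control, -3.21 on both arrays at 24 h, and -2.05 and -2.82 at 48 h. The groups did not overlap. At 24 h the log2 difference of 1.03 ± 0.255 (SE) lay just above 2-fold with an adjusted p of limma of 0.0556, and quantile normalization took it to 0.65, median centring to 0.74 and normexp correction to 0.41, all without a call. At 48 h it was 1.80 ± 0.255, or 3.49-fold, with an adjusted p of limma of 0.0146; with normexp it was 0.78, and with normexp and quantile normalization 0.71, under 2-fold.

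Ifitm2, which like Ifitm3 localizes to endosomes, was bright and flat. Probe A_55_P1998578, at chr7:148140881-148140940 (mm9), gave 3.84 and 3.94 in Control, 3.82 and 3.83 at 24 h, and 3.86 and 3.84 at 48 h. All 6 values lay within a narrow band. The log2 difference from Control was -0.07 ± 0.105 (SE), with a 95% interval from -0.34 to 0.19, at 24 h and -0.05 ± 0.105, from -0.31 to 0.22, at 48 h, with adjusted p of limma of 0.698 and 0.814; its sign at 48 h turned with quantile normalization. The intervals of Ifitm2 did not reach those of Ifitm3, whose lower bounds were 1.78 and 2.09; the difference between these genes was not tested. Windows of both genes held an ISRE core with the same letters, GAAAAGGAAA.

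Ifitm7, a less studied member on chromosome 16 outside the main cluster, had 2 probes that the files assign to different transcripts. The brighter, A_55_P2097161 at chr16:13982912-13982971 (mm9), gave 4.41 and 4.46 in Control, 4.48 and 4.83 at 24 h, and 4.63 and 5.00 at 48 h. Its log2 difference was 0.22 ± 0.185 (SE) at 24 h and 0.38 ± 0.185 at 48 h, with adjusted p of limma of 0.478 and 0.234, so that it was not called; the sign at 24 h turned with median centring. A dinucleotide repeat of 30 bases lies in that probe, against at most 6 bases in each of the other 13.

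The dimmer Ifitm7 probe, A_55_P1955876 at chr16:13981795-13981854 (mm9), read -0.90 and -1.0 in Control, -0.35 and -0.29 at 24 h, and -0.23 and 0.17 at 48 h. Here the Control arrays lay below all stimulated arrays. With every probe tested on its own, its log2 difference was 0.63 ± 0.166 (SE) at 24 h with an adjusted p of limma of 0.0682 and 0.92 ± 0.166 at 48 h with 0.0296, in each case under 2-fold. The probes of Ifitm7 thus shared a direction but not a size, and which of them reads the transcript of this cell line was not tested.

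Ifitm5, expressed mainly in osteoblasts, was at background. Probe A_52_P273812, at chr7:148135949-148136008 (mm9), read -5.10 and -4.23 in Control, -4.32 and -4.31 at 24 h, and -4.30 and -5.18 at 48 h. Of these only Control array 2 was well above background, so no difference could be given.

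The genes around the members were then read by role in the interferon pathway. Of the interferon ligands, 21 were listed, 15 were on the array and 11 were tested, and 0 were called by limma at either time or by adjusted p. Of all genes 5.86% were called higher at 24 h and 4.66% at 48 h, so that 0 of 11 lies near these shares. Ifnb1 was not well above background on any array, nor were Ifna4 and Ifne, and Ifng was so on 1 array. Ifna1 differed from Control by 0.02 ± 0.137 (SE) at 24 h and -0.04 ± 0.137 at 48 h. The other alpha genes tested were Ifna2, Ifna5, Ifna7, Ifna11, Ifna12, Ifna13, Ifna14 and Ifnab, and with Ifnk and Il28b the differences ran from -0.22 to 0.97 at 24 h and from -1.11 to 1.37 at 48 h. The widest were those of Ifnk and Ifna7, with standard errors of 0.839 and 1.58.

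Of 8 receptor and kinase genes tested, 1 was called higher at 24 h and 2 at 48 h, and 0 lower, against 5.86% and 4.66% of all genes called higher. By adjusted p of limma 2 were higher and 1 lower at each time. By that rule 8.02% and 6.58% of all genes were higher, and 1477 and 1820 of 24648 lower. Jak2, the kinase shared with many cytokine receptors, was higher by 1.1 ± 0.148 (SE) and 1.24 ± 0.148, and with median centring 0 genes of the list were called at 24 h. The chains of the type I receptor, Ifnar1 and Ifnar2, differed by 0.47 ± 0.138 and 0.70 ± 0.173 at 24 h, with adjusted p of limma of 0.0814 and 0.0555, and were not called. Il10rb, the receptor chain shared with interferon lambda, was called at 48 h at 1.05 ± 0.145, close to 2-fold, and the count of 2 became 1 with quantile normalization, median centring, normexp, and normexp with quantile normalization. Ifngr1, a chain of the interferon gamma receptor, was lower by adjusted p at -0.71 ± 0.103 and -0.68 ± 0.103, with adjusted p of limma of 0.015 and 0.0172, under 2-fold.

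Of 8 transcription factors tested, 4 were called higher at each time and 0 lower, against 5.86% of all genes called higher at 24 h and 4.66% at 48 h. Irf7, which amplifies interferon transcription, rose by 3.67 ± 0.182 (SE) and 4.91 ± 0.182. The ISGF3 parts Stat2 and Irf9 rose by 2.77 ± 0.175 and 2.73 ± 0.236 at 24 h and by 3.54 ± 0.175 and 2.79 ± 0.236 at 48 h, and Irf1 by 1.25 ± 0.227 and 2.08 ± 0.227. All 3 feedback inhibitors were called higher at both times. Usp18, which removes ISG15 from proteins and dampens receptor signaling, rose by 6.66 ± 0.477 and 8.04 ± 0.477, and Socs1 by 1.33 ± 0.178 and 1.66 ± 0.178.

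Of 30 other interferon-induced antiviral effectors tested, 20 were called higher at 24 h and 20 at 48 h, and 0 lower, with medians of 2.27 and 3.47. The shares of all genes called higher were 5.86% and 4.66%. By adjusted p of limma 1 effector was lower at 24 h, Samhd1, at -0.67 ± 0.159 (SE) with 0.0496, under 2-fold. Among the 30 effectors 4 genes, Cmpk2, Mx1, Oas2 and Rsad2, were not well above background in Control. With these at their lower bounds the medians were 2.10 and 3.47. Mx1, Oas2 and Rsad2 were at least 27.9-fold, 49.8-fold and 48.9-fold higher at 48 h and cannot be ranked against the others. The named genes with the largest fitted mean change were Parp14, an ADP-ribosyltransferase, Oas1a and Oasl2 of the oligoadenylate synthetase family, and the GTPase Gbp2. Their log2 differences at 48 h were 7.29 ± 0.728 (SE), 7.64 ± 0.582, 7.09 ± 0.685 and 6.89 ± 0.376, where Parp14 was well above background on 1 of 2 Control arrays. The members' own median lay below that of these effectors at both times, a description that was not tested. Of 9 partners and modifiers of the IFIT and IFITM proteins, Setd7, a methyltransferase that modifies Ifitm3 protein, was called lower at 24 h at -1.14 ± 0.133 with an adjusted p of limma of 0.00888. At 48 h it was at -0.88 ± 0.133 with an adjusted p of limma of 0.0173, under 2-fold, and 0 partners were called. By adjusted p 3 partners were lower at each time, against 1477 of all 24648 genes at 24 h and 1820 at 48 h. At each time 450 of all genes were called lower.

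**Figure D3:**
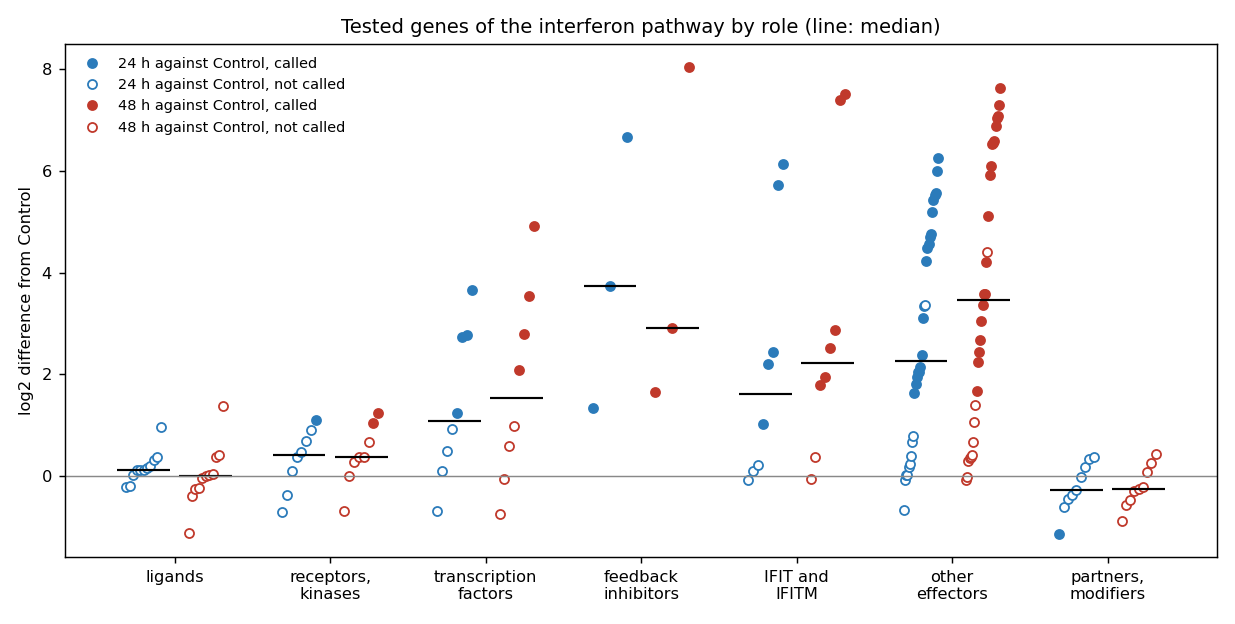
Log2 difference from Control (y axis) of each tested gene by role (x axis), at 24 h in blue and 48 h in red; filled dots were called, open dots were not, and black lines are medians. The 11 ligands have medians of 0.13 and 0.00 with 0 called, against 5.86% and 4.66% of all genes called higher. The IFIT and IFITM genes have medians of 1.62 and 2.22.

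The genes with the pattern most like that of a member were sought by the Euclidean distance over the 6 arrays, each gene taken relative to its Control mean, among 15422 candidates outside the members with a RefSeq symbol. For Ifit1 they were AA467197, Trim30a, Xaf1, Csta3 and the effector Gbp2, at distances from 0.995 to 1.21. For Ifitm3 they were Slfn10-ps, Gm9758, Endod1, Disp2 and Sema3a, at distances from 0.419 to 0.503. The 5 genes near Ifit1 differed from Control by between 5.34 and 6.04 at 24 h, and those near Ifitm3 by between 1.98 and 2.27. These sizes had to lie near those of Ifit1 and Ifitm3, since closeness on the same arrays picked the genes.

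Along the chromosomes, the genes beside the clusters were not called higher at 2-fold, against 5.86% of all genes at 24 h and 4.66% at 48 h. With so few genes tested, an absence of calls lies near these shares. Some passed by adjusted p at smaller sizes, against 8.02% and 6.58% of all genes higher by that rule. Around the Ifit cluster, of the 5 protein-coding genes on either side 8 of 10 were tested. Of these 0 were called higher and 1 lower at each time, where 450 of all 24648 genes were called lower. By adjusted p 1 was higher at each time, Stambpl1, at 0.65 ± 0.139 (SE) and 0.67 ± 0.139, and 2 were lower, Rpp30 and the gene called, which was Acta2, smooth muscle actin, at -2.26 ± 0.456 (SE) at 24 h and -3.48 ± 0.456 at 48 h, with adjusted p of limma of 0.0345 and 0.012. Around the Ifitm cluster on chromosome 7, 7 of 10 were tested and 0 were called by limma at either time. By adjusted p 1 was higher at 24 h, Sigirr at 0.93 ± 0.133, and 2 were higher at 48 h, Sigirr at 0.64 ± 0.133 and Pgghg at 0.67 ± 0.116. Within the Ifitm cluster the flat Ifitm2 lay between the untested Ifitm5 and Ifitm1, and within the Ifit cluster the weakly changed Ifit1bl2 lay between Ifit3b and Ifit1.

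**Figure D4:**
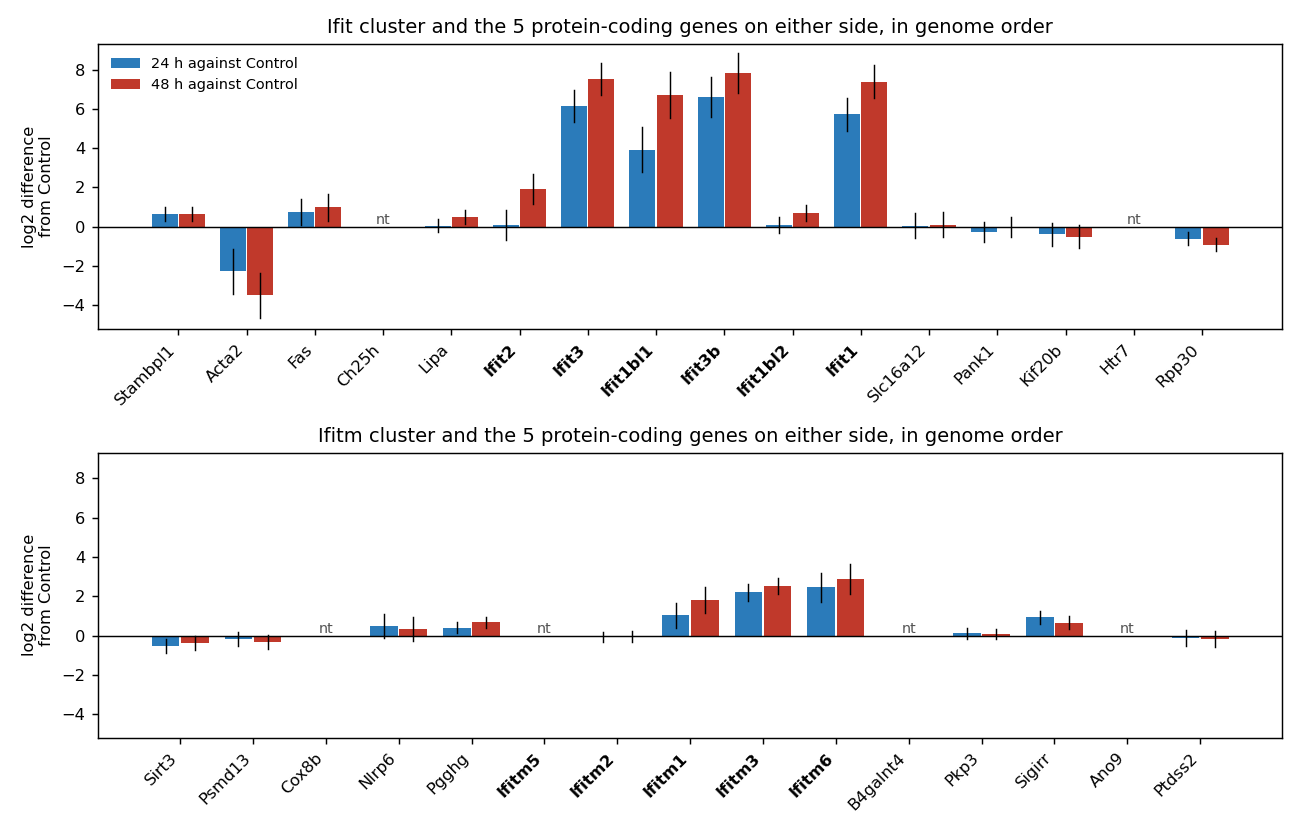
Log2 difference from Control (y axis) of the Ifit and Ifitm cluster genes (bold) and the 5 protein-coding genes on either side (x axis, in genome order), at 24 h in blue and 48 h in red, with 95% intervals of limma as lines; nt marks genes that were not tested. Ifit3, Ifit3b and Ifit1 lie between 5.73 and 7.81, with Ifit1bl2 at 0.11 and 0.69 between Ifit3b and Ifit1. Of the neighbors 0 were called higher at 2-fold, against 5.86% and 4.66% of all genes.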

How the data were processed

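N18-Fms RNA was measured on 6 single-color Agilent arrays. The authors deposited Feature Extraction 11.0.1.1 files (processing notes: 11.0.1) with a background-subtracted intensity per spot, not normalized between arrays, the raw mean and background intensity, and flags, and a table of log2 values, used as an alternative. The labels' times were used. From the intensity, outlier spots were dropped, spots of a probe averaged, log2 taken relative to the 75th percentile, and the brightest probe kept per gene; 303 probe designs with only outlier spots on some array were left out. Genes for which some group had both arrays well above background were compared in 1 fit of all arrays with limma 3.58.1 (lmFit and eBayes, 2-sided, 3 residual and 2.39 prior degrees of freedom) in R 4.3.3 with the data.table package (1.17.8), tested on simulated data. The exact permutation test of 2 against 2 arrays cannot go below 0.333 and was not used. Probe coordinates are those of the files (mm9); names and promoters are from RefSeq (GRCm38.p6). Members, gene lists and tests were chosen with earlier results of these data known. Named genes were all members and relatives, set pathway genes, the 4 most changed effectors, called partners, the 5 most like genes and the neighbors; Il10rb, Jak2, Ifngr1, effectors at background in Control and marker genes were added with values seen. Alternatives covered background correction, scaling, filter, probe choice, outliers, prior, groups fitted, slide, replicate block, test, and leaving out each array. Replicate arrays had a Pearson correlation across genes, which are not independent, between 0.9926 and 0.9936; only 2 arrays per group limit the precision. Some listed genes are not reported here.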

Additional observations from a re-analysis of the deposited data

Results flagged for a closer look

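The IFIT genes had larger differences from Control at 48 h than at 24 h, by the test of 48 h against 24 h. The log2 difference between the times was 1.67 for Ifit1, 1.84 for Ifit2 and 1.37 for Ifit3, at unadjusted p of limma of 0.00328, 0.00135 and 0.00605, and the adjusted p of limma was 0.16, 0.138 and 0.189, past no threshold. With normexp background correction the adjusted p of limma was 0.0403, 0.0278 and 0.0316, and with normexp and quantile normalization 0.0261, 0.0222 and 0.0238. Both arrays at 48 h lay above both at 24 h for each gene. This order also held for Ifitm1, Ifitm3, Ifitm6 and the flat Ifitm2, the last at a difference of 0.03. Its share among all genes was not counted. Whether the cause is time, the culture or the array was not tested.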

How the results depend on the processing

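Each result was recomputed under 24 alternatives. The count of members called at 24 h (5) became 3 with normexp and quantile normalization, and that from 24 h to 48 h (3) became 1 with the methods' Student test and 0 by adjusted p of limma, which all 3 IFIT genes passed with normexp. The methods' Student test called 5, 5 and 1 members at 24 h, at 48 h and between them. After Benjamini-Hochberg it called 0, 0 and 0, where limma gave 4, 6 and 0. Of all 24648 genes it called 992 higher at 24 h and 826 at 48 h before adjustment, and 0 at either time after. The share of all genes between the times was not counted. Leaving out arrays gave 5 at 24 h, 6 at 48 h and from 3 to 4 between the times, the 4 without array 2 at 48 h, where Ifitm1 reached 1.16. Per the methods the RNA came from separate experiments. The labels give replicate numbers but do not say that arrays of the same number share an experiment. The correlations between groups of the replicate deviations were 0.128, 0.0941 and 0.199, and no pairing was assumed. With the replicate block the counts were 5, 6 and 3, with no change. Signs turned for differences near 0: Ifitm2 at 48 h was 0.03 with quantile normalization and 0.02 with normexp and quantile normalization; Ifit2 at 24 h was -0.19 with median centring and, without an array, from -0.01 (array 2 at 24 h) to 0.20; Ifitm7 at 24 h was -0.06 with median centring, and from 24 h to 48 h it was -0.01 with the slide as a block or without array 1 at 24 h and from -0.02 (array 2 at 48 h) to 0.34 with an array left out. The cause was not tested. Ifit1, Ifit3 and Ifitm3 stayed called against Control in all 21 alternatives with a fold change, with log2 differences at 48 h of 5.55 to 7.90, 6.95 to 7.92 and 2.35 to 2.68. Ifitm1 at 48 h lost 2-fold with normexp (0.78) and with normexp and quantile normalization (0.71), and at 24 h read 0.23 there. Among effectors, 12 and not 20 were called at each time with genes required above background on all 6 arrays, a filter that removes genes dim in Control. How many effectors stayed tested under it was not counted. Of all 21322 genes left, 728 were called higher at 24 h and 771 at 48 h. Of all genes, the count at 24 h of 1444 became 586 with normexp and 2801 with no filter.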
